A study of Mus musculus with 2 samples.

Results

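The abundant circular RNAs (circRNAs) of intestinal group 3 innate lymphoid cells (ILC3s) were described on a pair of circRNA microarrays, 1 from vehicle-treated and 1 from dextran sulfate sodium (DSS)-treated mice. Of the 14236 circRNA probes on the array, 1152 (8.09%) were selected on their measured signal. A probe was taken where it was well above background and not flagged as an outlier spot on both arrays, and where the mean of its log2 processed signals over both arrays was 11 or more, which corresponds to a signal of 2048. No scaling was applied before this choice. The level of these probes is therefore what chose them, and it is given as a description. The abundant probes made up 12.5% of the 9206 that both arrays measured, and the other 8054 were dimmer. Neither a circRNA name nor a host gene or sequence stands beside an identifier in the files used here, so that each probe is given by its identifier and no role can be stated for it.

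CircRNAs arise by back-splicing, in which a downstream splice donor joins an upstream splice acceptor of the same transcript, and the resulting closed ring has no free end. This makes them resistant to RNase R, which digests linear RNA from its ends, and it makes many of them long-lived in cells. A circRNA probe is commonly placed across the back-splice junction, since the rest of the sequence is shared with the linear transcript of the host gene. ILC3s are tissue-resident lymphocytes without rearranged antigen receptors. They depend on the transcription factor RORγt, and they release IL-22 and IL-17 in the intestinal mucosa.

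The cells were primary mouse ILC3s of the small intestine, sorted as Lin-CD90highCD45low cells. Both groups came from Rag1-/- mice, which lack mature T and B cells, so that neither array represents ILC3s in the presence of adaptive lymphocytes. The vehicle group is labelled as control ILC3s and the DSS group as DSS-activated ILC3s. DSS is a sulfated polysaccharide that injures the gut epithelium. The study's general methods give DSS to young adult mice in drinking water for several days before a return to plain water. Whether the mice behind the arrays followed this course, at which point the cells were taken and how many mice were used is not stated for them in the sources used here. The RNA was depleted of linear molecules with RNase R before random-primed amplification and Cy3 labelling. With 1 array per condition no difference could be tested, and no p-value is given. The labelled cell type could not be checked, since no probe could be matched to a marker gene.

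The background limit was passed by 85.1% of the circRNA probes with vehicle and by 67.1% with DSS. The lowest such signals were 8.94 with vehicle and 7.60 with DSS. Signals of the abundant probes ranged from 1046 to 416885 on the vehicle array, with a median of 6043, and from 586 to 321064 on the DSS array, with a median of 4913. No circRNA spot was saturated, and the scanner limit was 778040 on both arrays. No unflagged probe reached the level limit without being well above background, and 1 flagged probe that reached it was left out.

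The scanner software gave each spot an error of its own, with a median of 10% of the signal for the members on either array. That error was not used for the values below. Each circRNA probe was printed at 1 spot, so that a spread between spots had to come from other probes of the array. There were 19 such probes as bright as the abundant circRNAs, each with 6 to 10 usable spots. Their pooled SD between spots was 0.053 (log2) with vehicle and 0.072 with DSS. For the DSS minus vehicle difference it was 0.088. These values cover the spots of 1 hybridization and neither the spread between mice nor that between arrays.

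Near the limit, the members lowest in mean signal were ASCRP4009258 and ASCRP4003961. ASCRP4009258 had a signal of 2297 with vehicle and 1830 with DSS, giving a mean log2 signal of 11.0016. ASCRP4003961 had 1096 and 3839, which gives 11.0021. Similar means thus came from nearly equal signals in the first and unequal signals in the second. Just outside the limit, ASCRP4002520 (mean 10.9989) had 1818 with vehicle and 2304 with DSS, and ASCRP4009033 (mean 10.9981) had 2427 and 1724.

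**Figure D1:**
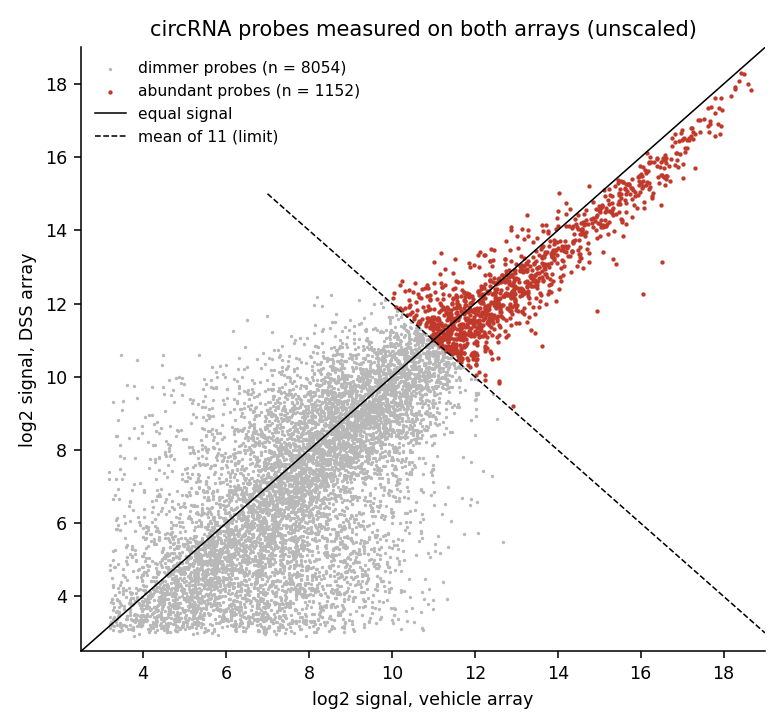
Unscaled log2 processed signal of each circRNA probe on the vehicle array (x axis) and the DSS array (y axis), 1 point per probe, for the 9206 probes measured on both arrays. The 1152 abundant probes (red) lie beyond the dashed line, where the mean of both signals is 11, and most of them (864) lie below the line of equal signal.

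The abundant probes carried most of the circRNA signal on both arrays. Their summed signal was 26907700 units of 31136300 on the vehicle array, a share of 86.4% ± 0.029 (SD from the spread between spots). On the DSS array it was 17941200 of 20900800, a share of 85.8% ± 0.042. The shares differed by less than 1 percentage point, while the sums themselves were lower on the DSS array. The same signals, averaged over both arrays, chose the members, so that a large and similar share was favoured by the rule. Where the vehicle array alone chose the members, the shares were 87.8% with vehicle and 85.6% with DSS. Where the DSS array alone did, they were 85.6% and 86.6%. A share compares each array with itself and needs no scaling between arrays. Intensity is not a molar amount, because probes differ in how well they bind, and the shares are shares of signal.

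The signal was concentrated further within the abundant probes. The 87 members with a mean log2 signal of 16 or more held 44.3% of all circRNA signal with vehicle and 43.1% with DSS. The 472 members with a mean of 11 to 12 were the most numerous and held 4.77% and 6.31%. Between these, the 261 members at 12 to 13 held 5.63% and 6.58%, and the 154 at 13 to 14 held 6.92% and 7.16%. The 101 at 14 to 15 held 10.1% and 9.25%, and the 77 at 15 to 16 held 14.7% and 13.5%. The share was thus larger on the DSS array in each class below 14 and smaller in each class above it. These differences were larger than the error from spots, which was at most 0.159 percentage points in any class, and there was no second array to set them against. Processing that acts by signal level can still move them. The median DSS minus vehicle difference (log2) at 16 or more was -0.13 after the main scaling, described with the differences. It was 0.01 with the authors' log2 values and 0.20 after cyclic loess. Shares by class were not computed with those values.

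**Figure D2:**
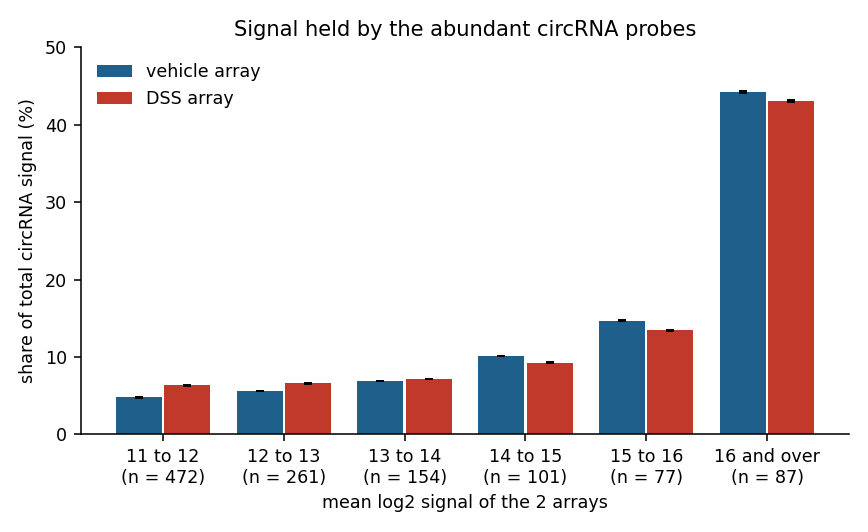
Share of total circRNA signal (y axis, percent) held by the abundant probes in 6 classes of mean log2 signal (x axis, with the number of probes) on the vehicle and DSS arrays. Error bars are the SD from the spread between spots. The 87 brightest members held 44.3% and 43.1%, and the 472 dimmest held 4.77% and 6.31%.

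The number of probes that shared the signal was similar. The 110 brightest probes of the vehicle array held 50% of its circRNA signal, and 121 were needed on the DSS array. For 80% the numbers were 573 and 684, and for 90% they were 1669 and 1598. The effective number of probes, 1 over the sum of squared shares, was 306 with vehicle and 301 with DSS. The 10 brightest probes of each array held 10.62% and 11.99% of the signal, and the 50 brightest held 32.6% and 33.0%.

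The brightest 10 members, ranked by mean signal, had signals of 228494 to 416885 with vehicle and 200927 to 321064 with DSS. ASCRP4006342 had the highest mean, with 369458 with vehicle and 316562 with DSS, and ranked 3 and 2 on them. ASCRP4004008 followed with 349674 and 321064 and was the brightest probe of the DSS array. ASCRP4005609 was the brightest of the vehicle array with 416885 and ranked 7 on the DSS array with 232744. All 10 were lower on the DSS array before scaling. ASCRP4006710 and ASCRP4006650 held ranks 6 and 8 on both arrays.

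The remaining 5 of these 10 kept close ranks as well. ASCRP4007626 went from rank 2 to rank 4, with signals of 396811 and 261822. ASCRP4013042 went from 5 to 3, with 338748 and 275414. ASCRP4004672 went from 7 to 5, with 314472 and 249036. After scaling (described with the differences), the 10 differed between the arrays by -0.34 to 0.38 (log2), at most 1.30-fold. ASCRP4005539 ranked 10 and 9, and ASCRP4005907 ranked 15 and 10. Of these 10 probes, 9 were also among the 10 brightest of the vehicle array, and all 10 were the 10 brightest of the DSS array.

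Beyond these, the order of the abundant probes was similar on both arrays. Of the 50 brightest probes of each array 45 were shared, of the 100 brightest 89, of the 200 brightest 179 and of the 500 brightest 426, and every probe on these lists was a member. Of the 1152 members, 1026 were among the 1152 brightest of the 14225 ranked probes with vehicle and 1033 with DSS, and 918 were on both lists. The rule, which averages both arrays, favours such overlap. Across the members, Spearman's rho of the signals was 0.821 and Pearson's r of the log2 signals was 0.911. Across the 8054 dimmer probes rho was 0.640. These correlations run across probes of the same pair of hybridizations. They are given with no p, since probes are not replicates, and a set chosen by its level has a narrower range than all probes.

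Ranks shifted least at the top. The median absolute change of rank between the arrays was 8 for members at 16 or more, 22 at 15 to 16, 29 at 14 to 15, 54 at 13 to 14, 122 at 12 to 13 and 258 at 11 to 12. Over all members it was 100.5, and 554 members gained rank on the DSS array, 593 lost rank and 5 kept it. Dimmer probes, which stand closer together in signal, had a median change of 1613 ranks. The lowest rank of a member was 2255 with vehicle and 2848 with DSS.

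The lists of the 100 brightest exchanged 11 probes. Those that left ranked 60 to 97 on the vehicle array, and ASCRP4003392 moved farthest, from rank 78 to rank 355. Its signal was 93114 with vehicle and 9071 with DSS. The other 10 ranked 104 to 165 on the DSS array. Those that entered came from vehicle ranks of 103 to 163 and ranked 75 to 100 on the DSS array. Their scaled differences were -0.06 to 0.42, so that most of them entered with little difference of their own. For the 11 that left, the differences were -2.86 to -0.43.

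**Figure D3:**
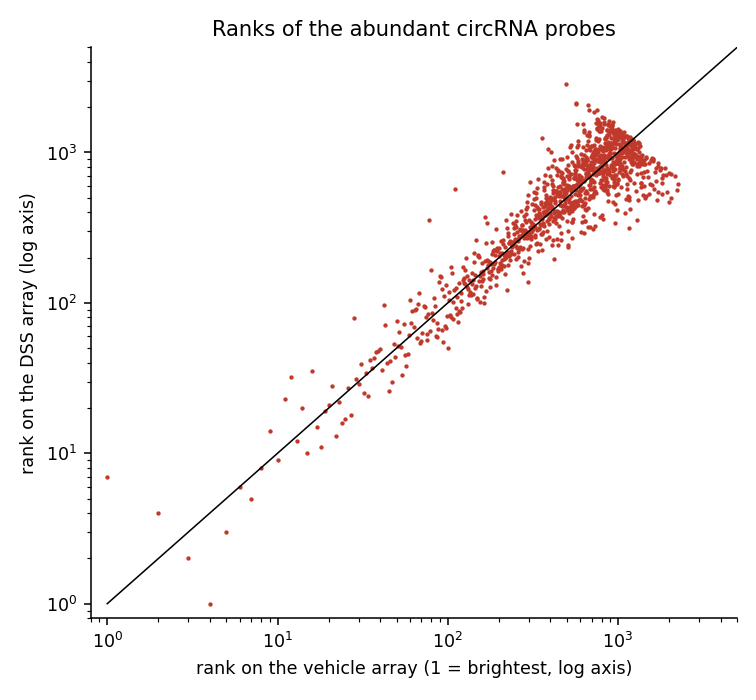
Rank of each of the 1152 abundant probes among all 14225 ranked circRNA probes on the vehicle array (x axis) and on the DSS array (y axis), both log axes, with 1 the brightest. Points gather along the line of equal rank, and the median absolute change was 8 ranks at a mean log2 signal of 16 or more and 258 ranks at 11 to 12.

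For the differences between DSS and vehicle, the 75th percentile of log2 signal over all non-control probes was subtracted from each array, which removed a difference of -0.50 (log2). Before this, 864 members had the lower signal on the DSS array and 288 the higher, with a median difference of -0.47. After it, the median difference of the members was 0.03 and the SD across members was 0.75. The middle 50% of members lay between -0.32 and 0.50, and 5% lay below -0.95 and 5% above 1.57. Within 1.5-fold in either direction were 751 members (65.2%). Within 2 SDs of the spread between spots were 303 (26.3%). The scanner software's error of a spot, with a median of 10% of the member signal, was not used in this count. Both counts are of members alone, and the SD across all 9206 measured probes was 1.72. The 19 bright other probes also differed between the arrays, by -0.53 to 1.22, with an SD of 0.46 across them. Exceeding the spread between spots was thus not particular to the members. The spread between spots does not cover preparation of RNA from different mice. Whether these differences exceed the spread of such preparations could not be tested. Each array holds RNA of a sorted population, so that fewer cells carrying a circRNA and less of it per cell cannot be told apart.

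Of the 1152 members, 131 (11.4%) were at least 2-fold higher on the DSS array, 48 (4.17%) were at least 2-fold lower, and 973 (84.5%) differed by less. The background over all 9206 measured probes was 20.6% for a 2-fold or larger increase and 24.5% for a decrease of that size. The arrays that give these counts are those that chose the members, and the counts are given without a test. The balance between them turned with the array that chose the members. Where the vehicle array alone set the level, 74 of 1291 probes were higher and 137 lower, and where the DSS array alone did, 238 of 1174 were higher and 27 lower. The 131 higher members had median signals of 2249 with vehicle and 4722 with DSS, and together held 1.39% and 4.10% of the circRNA signal. The 48 lower members had medians of 9168 and 2409 and held 3.48% and 1.35%. A difference of at least 4-fold was found for 26 of the higher and 7 of the lower members. The background over all measured probes is given at 2-fold only, so that counts at other folds describe the members alone.

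The differences varied with the level. Of the higher members 91 (69.5%) had a mean log2 signal under 12, as had 22 (45.8%) of the lower and 41.0% of all members. The median difference was 0.29 at 11 to 12, 0.08 at 12 to 13, -0.06 at 13 to 14 and -0.13 in each of the classes at 14 to 15, 15 to 16 and 16 or more. The SD across probes was 0.86, 0.72, 0.63, 0.66, 0.38 and 0.33 in the same order. In the class just outside the limit, at 10 to 11, the median difference was 0.33 and the SD 1.06 (n = 757). A single factor per array leaves this step between the classes as it is, whereas other processing changed it. With the authors' log2 values the class medians of the members lay between -0.16 and 0.01, and with cyclic loess the class at 16 or more stood at 0.20 and that at 11 to 12 at 0.01.

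**Figure D4:**
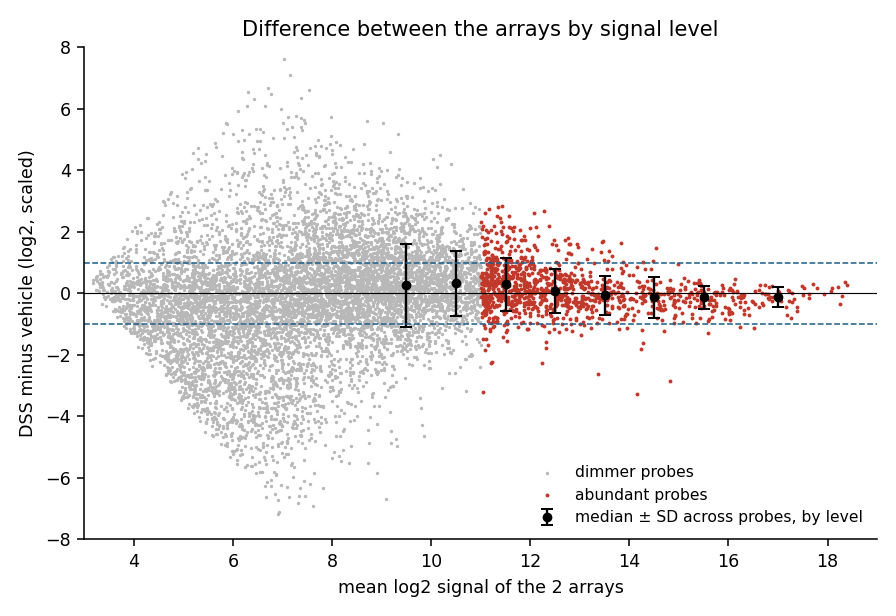
Scaled DSS minus vehicle difference (y axis, log2) against the mean log2 signal of both arrays (x axis) for the 9206 circRNA probes measured on both arrays, with abundant probes in red. Black points and bars are the median ± SD across probes in classes of level, and the dashed lines mark 2-fold. The SD was 0.86 at a level of 11 to 12 and 0.33 at 16 or more.

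Among the 164 members with a mean log2 signal of 15 or more, 0 were at least 2-fold higher and 3 at least 2-fold lower. These 3 were ASCRP4012640, ASCRP4006878 and ASCRP4009671, named after their values were seen. ASCRP4006878 had a signal of 162854 with vehicle and 53242 with DSS, a difference of -1.11. ASCRP4012640 had 92217 and 26390, a difference of -1.30. ASCRP4009671 had 133409 and 44295, a difference of -1.09. ASCRP4006878 was within 2-fold with the authors' values, at -0.98, after quantile normalization, at -0.91, and after cyclic loess, at -0.82. After median scaling all 3 were higher with DSS, by 0.34 in ASCRP4006878.

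The 8 largest increases among the members were 5.71-fold to 7.23-fold. The largest was that of ASCRP4008978, whose signal was 1219 with vehicle and 6225 with DSS, a log2 difference of 2.85. ASCRP4013486 had 1170 and 5772, a difference of 2.80. ASCRP4012313 had 1057 and 5005, a difference of 2.75. ASCRP4013150 was the brightest of the 8 on the DSS array, at 2340 with vehicle and 10579 with DSS, a difference of 2.68. ASCRP4012446 had 2078 and 9047, a difference of 2.62, and these last 2 had signals above 2048 on both arrays.

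ASCRP4008608 had the lowest vehicle signal of any member, 1046, and 4510 on the DSS array, a difference of 2.61. ASCRP4008772 had 1266 and 5163, and ASCRP4012817 had 1506 and 6075. All 8 ranked between 1160 and 2255 on the vehicle array and between 315 and 620 on the DSS array. Together they held 0.038% of the circRNA signal with vehicle and 0.251% with DSS. All of them except ASCRP4013150 and ASCRP4012446 had a vehicle signal under 2048 and became members only through the DSS array, on which they were high, so that a large increase was favoured by the rule. Over the 7 other ways of obtaining the values, the differences of the 8 lay between 2.01 and 4.31.

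The 8 largest decreases included brighter probes. ASCRP4012706 had a signal of 67658 with vehicle and 4920 with DSS, a log2 difference of -3.28, or 9.71-fold. ASCRP4003392, the probe that moved farthest out of the 100 brightest, had a difference of -2.86. ASCRP4004643 had 31310 and 3589, a difference of -2.62. These 3 had mean log2 signals of 14.16, 14.83 and 13.37, in classes whose SD across probes, these 3 included, was 0.66 and 0.63. They were listed for the size of their decrease, so that their distance from other probes of their level follows from that choice.

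The other 5 were dimmer. ASCRP4006190 had 7689 with vehicle and 586 with DSS, the lowest DSS signal of any member, and a difference of -3.21. ASCRP4005280 had 12655 and 1846, a difference of -2.28. ASCRP4006709 had 6163 and 912, a difference of -2.25, and ASCRP4007358 had 6182 and 937, a difference of -2.22. ASCRP4010772 had 4862 and 965, a difference of -1.83. These 5 had a DSS signal under 2048 and became members only through the vehicle array, on which they were high. A large decrease was thus favoured by the rule in them. Under every one of the 7 other ways of obtaining values from the same pair of arrays, all 8 were lower on the DSS array. Their log2 differences were -3.78 to -0.38. The smallest sizes were those after median scaling, where 4 of the 8 were within 2-fold.

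**Figure D5:**
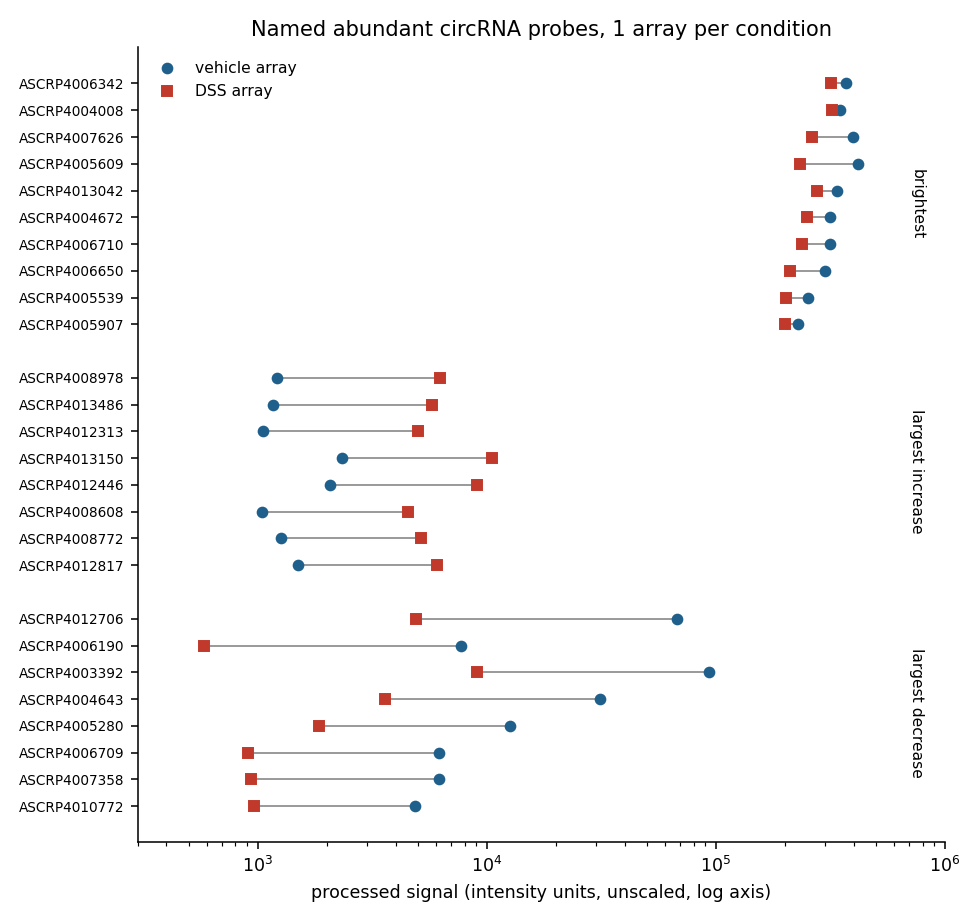
Unscaled processed signal (x axis, log axis) of the 10 brightest members and of the 8 with the largest increase and the 8 with the largest decrease after scaling (y axis, probe identifiers) on the vehicle array (circles) and the DSS array (squares), 1 array per condition and no error bar. The 10 brightest sit between 200927 and 416885, the 8 increases end between 4510 and 10579, and the 8 decreases end between 586 and 9071.

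At the other end, the 4 members with the smallest scaled difference were ASCRP4000131, ASCRP4007549, ASCRP4003033 and ASCRP4005614. ASCRP4000131 had a signal of 4180 with vehicle and 2951 with DSS. ASCRP4007549 had 11485 and 8109, ASCRP4003033 had 7929 and 5605, and ASCRP4005614 had 6658 and 4699. Their scaled differences were all within 0.01 of 0 by the choice of scaling alone, and without scaling each was -0.50. With the authors' values they were -0.44, 0.07, -0.18 and -0.21, so that the place of a probe near no difference was set by the processing.

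Changes in share of signal, a measure that needs no scaling between arrays, are in percentage points. Only probes with a large share can have large ones, so that the brightest probes head this list by construction. They were listed by this measure after their values were seen. The 7.23-fold increase of ASCRP4008978 amounted to 0.026 percentage points. ASCRP4004008 held 1.12% of the circRNA signal with vehicle and 1.54% with DSS, and ASCRP4006342 held 1.19% and 1.51%. ASCRP4009020 went from 0.796% to 0.483%, with signals of 247696 and 100904, and ASCRP4006878 from 0.523% to 0.255%. No single member gained or lost more than 0.413 percentage points.

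The number of members counted as higher and lower depended on the scaling, as did the background over all 9206 probes. Higher members made up 73.2% of those at least 2-fold different in the main setting. Without scaling 64 members were higher and 184 lower (25.8% higher), against 12.9% and 35.7% of all probes. Scaling by the 75th percentile of the 9206 measured probes gave 88 higher and 107 lower (45.1%), against 15.8% and 29.9% of all probes. Quantile normalization gave 94 and 74 (56.0%), against 38.2% and 15.3%, and cyclic loess gave 93 and 75 (55.4%), against 32.9% and 18.0%. After normexp background correction 117 were higher and 62 lower (65.4%), against 16.2% and 14.9%. The authors' log2 values gave 93 and 74 (55.7%), against 29.0% and 13.0% of all probes. Median scaling gave 945 and 4 (99.6%), against 63.0% and 9.87%.

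The settings also moved the median of all probes. It was -0.06 in the main setting, against 0.03 for the members. This median was 0.48 after quantile normalization (members -0.03), 0.27 after cyclic loess (-0.03), 1.40 after median scaling (1.48), -0.32 by the 75th percentile of the measured probes (-0.24), -0.56 without scaling (-0.47), 0.09 after normexp (-0.02) and 0.39 with the authors' values (-0.066). The members thus lay above the median of all probes in the settings with 1 factor per array and below it in the other 4. Settings with 1 factor per array move every probe alike. The widest downward move, that of no scaling, was -0.50 (log2), smaller in size than the 2-fold difference that defined the 131 higher members. Their direction could therefore not turn in these settings. The widest move of all, that of median scaling, was upward, so that the direction of a small decrease had to turn. All 131 were higher in direction in all 7 other sets, and 64 members were at least 2-fold higher in all 8. Of the 48 lower members 16 were lower in direction in all 7 others, and 4 were at least 2-fold lower in all 8, namely ASCRP4012706, ASCRP4006190, ASCRP4003392 and ASCRP4004643. Both counts in all 8 sets equal those of the set with the fewest calls in that direction, no scaling for the higher members and median scaling for the lower.

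Probes bright on only 1 array fall partly outside the rule. At or above the limit on the vehicle array were 1302 probes, of which 1085 were members, and on the DSS array 1178, of which 1045 were members. At or above it on both there were 978, which the rule makes members. The 217 left out on the vehicle side had a median signal of 2435 there and 958 on the DSS array, and 11 of them did not pass the background limit with DSS. The 133 left out on the DSS side had a median of 2438 there and 1043 on the vehicle array, with 4 that did not pass the background limit with vehicle. These groups held 1.87% of the signal of the vehicle array and 1.67% of that of the DSS array.

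Position on the slide and identifier number were not used by the rule. By position on the slide, members made up 7.33% to 8.70% of the circRNA probes in 8 blocks of rows, and the median member difference lay between -0.04 and 0.12 in them. By identifier number, they made up 5.90% to 11.6% of the probes in 15 blocks of at most 1000 consecutive identifiers, and their median difference lay between -0.11 and 0.16. Of the 1152 members, 126 (10.9%) were followed by another member at the next identifier, against 8.09% members among all probes. Across these 126 adjacent pairs, Spearman's rho of the differences was 0.229, given as a description with no p. What the order of identifiers stands for is not given in the sources used here.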

How the data were processed

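RNase R-resistant RNA from sorted ILC3s was measured on Cy3 mouse circRNA arrays, 1 per condition. The authors deposited the intensity of each spot, written by the scanner software (Agilent Feature Extraction 11.0.1.1) after subtracting background within the array, and a table of log2 values for 12453 probes, whose normalization method is not given in the sources used here. All 1152 members have a value in it. Both arrays share 1 scan.

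The members and lists were chosen with earlier results of these data known. Spots flagged as outliers (11 circRNA probes) were left out, repeated spots entered as their mean log2 signal, and the 75th percentile of the non-control probes of an array was subtracted from its values. The fold threshold was 2. Named probes were the 10 brightest members, the 8 largest increases and decreases, the 4 smallest differences and 2 probes on each side of the limit. Shares are sums of processed signal over unflagged circRNA probes, with the error propagated from the SD between spots. No test was run, since there was 1 array per condition; the number of arrays limits the precision. Other settings tried were normexp (offset 50, on median spot signal), cyclic loess and quantile normalization in limma 3.58.1 (R 4.3.3), other scalings, thresholds, member limits, and the deposited log2 values. Python 3.11.15, numpy 2.4.6, pandas 2.3.3, scipy 1.17.1 and matplotlib 3.10.9 were used. The calculation was tested on simulated data with 1 factor between arrays, spot noise and planted changes of a known fold. Those data held no trend with level and no spread between preparations. The test covers the arithmetic and not the counts reported here.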

Additional observations from a re-analysis of the deposited data

Results flagged for a closer look

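Besides the circRNA probes, the array carries 94 other probes printed at 10 spots each. Their DSS minus vehicle differences enter the report only as the range and SD across the 19 bright ones. The 19 as bright as the abundant circRNAs supplied the SD between spots used there. Of these 19, with differences of -0.53 to 1.22 (median 0.32), 1 was at least 2-fold higher on the DSS array at every spot. This probe, A_51_P171999, had a mean signal over its 10 spots of 31669 with vehicle and 52086 with DSS. Its scaled log2 difference was 1.22 ± 0.075 (SD between spots), and 0.72 without scaling. It was picked out because it lies outside the main measurement and stood above its vehicle level. What it detects is not given in the sources used here, and no cause was tested.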

How the results depend on the processing

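With 1 array per condition, a log2 value was taken as unmoved within the SD between spots (0.088), a count within 1.5 times, a share of signal within its error from spots and a rank correlation within 0.05. The 131 higher members became 945 after median scaling, 64 without scaling, 252 at 1.5-fold and 26 at 4-fold. They became 314 of 1909 probes with a limit of 10 and 40 of 680 with a limit of 12. Where the vehicle array alone chose the members they were 74 of 1291, and 238 of 1174 where the DSS array alone did. The 48 lower members became 74 after quantile normalization, 75 after cyclic loess, 4 after median scaling and 107 by the 75th percentile of the measured probes. They became 184 without scaling, 74 with the authors' values, 149 at 1.5-fold and 7 at 4-fold. With limits of 10 and 12 they were 108 of 1909 and 26 of 680. By the vehicle and DSS arrays alone they were 137 of 1291 and 27 of 1174. Counts at 1.5-fold and 4-fold are of members alone, with no background at these folds. The median difference, 0.03, became 1.48 after median scaling, -0.24 by the 75th percentile of the measured probes, -0.47 without scaling, -0.066 with the authors' values, and -0.089 and 0.17 by the vehicle and DSS arrays alone. The SD, 0.75, became 0.89 and 0.64 with limits of 10 and 12 and 0.99 and 0.97 by the vehicle and DSS arrays alone.

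The share of signal on the vehicle array, 86.4%, became 86.3% with median signal minus local background, 84.7% after normexp, 86.4% (from 86.42 to 86.39) with outlier spots kept, 90.4% and 81.7% with limits of 10 and 12, and 87.8% and 85.6% by the vehicle and DSS arrays alone. On the DSS array 85.8% became 85.6%, 83.1%, 85.9% (over probes well above background), 91.1%, 79.5%, 85.6% and 86.6% in the matching order. The rank correlation of the members between the arrays, 0.821, became 0.758 with a limit of 10 and otherwise lay between 0.820 and 0.864. The 89 shared of 100 were 9 of 10, 45 of 50 and 426 of 500. Thresholds, limits and list lengths move values by their own construction, and for the other settings the cause was not tested. No paired analysis was possible because there was a single array for either condition.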
